A study of Mus musculus with 17 samples.

Results

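Plasmacytoid dendritic cells were examined here among leukocytes of mouse pancreatic tumours. They were taken as all cells with at least 3 unique molecular identifiers (UMIs, each standing for 1 captured RNA molecule) of Siglech, no UMI of Cd3d, Cd3e or Cd3g, fewer than 2 of Cd79a and fewer than 10 of C1qa, C1qb and C1qc summed, after cells with under 500 genes or over 10% mitochondrial UMIs had been left out. By this rule 51 of 18546 kept cells were members, 0.275% (exact binomial 95% interval 0.205 to 0.361%). The interval, like all intervals below, covers counting error only. Siglech, a lectin receptor of mouse plasmacytoid dendritic cells, and the T cell, B cell and macrophage genes of the rule chose the cells, so their levels are no result here.

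The 5 single-cell libraries came from CD45+ leukocytes, sorted 3 weeks after tumour cells had been implanted in the pancreas, with 1 untreated library per genotype. The genotypes were PDL1 floxed/floxed-CD4Cre (called flfl_CD4Cre), PDL1 floxed/WT-CD4Cre (flWT_CD4Cre), CD4Cre, PDL1 floxed/floxed without Cre (flfl) and WT. The Cre transgene is driven by Cd4 sequences, which act in T cells, and Cd274 is the gene of PD-L1, a ligand that restrains T cells through PD-1. Strain, age and the number of animals behind a library are not given in the sources used here, so no genotype was replicated. The labels call the material tumour-infiltrating T cells. The class called cells with Cd3 below held at least 2 UMIs of the Cd3 genes. Its cells also stayed under the member rule's limits for Siglech, Cd79a and the summed C1q genes. They numbered 68, 79, 118, 610 and 378 in flfl_CD4Cre, flWT_CD4Cre, CD4Cre, flfl and WT, a minority of the kept cells in each. Cells past those limits were left out, so these are not counts of all T cells.

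Plasmacytoid dendritic cells are known as the main rapid producers of type I interferon: they sense nucleic acid in endosomes through Tlr7 and Tlr9 and signal through Irf7. The factor Tcf4 holds their identity and restrains Id2, which favours conventional dendritic cells. They share secretory morphology and some early lymphoid genes with B cells, and in tumours they are often described as poorly active.

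Several facts of the libraries bear on the values below. The flfl_CD4Cre, flWT_CD4Cre and CD4Cre libraries shared 1414 to 1856 cell barcodes with one another, while flfl and WT shared 12, and no barcode was a member in more than 1 library. In CD4Cre 3 member barcodes also occurred in other libraries. The first 3 libraries also used a list of 31053 genes, against 28692 in flfl and WT, so genotype and these differences cannot be told apart between the sets. The flWT_CD4Cre library held 1 member of 4121 UMIs, in which 3 UMIs equal 728 CPM (counts scaled to a common total of UMIs), so its values are given but not read. One CD4Cre member held 48396 UMIs and many UMIs of genes of other cells, and the comparison of flfl_CD4Cre with CD4Cre is given with and without it.

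The share of members was of the same order in 4 libraries. There were 10 members among 3952 kept cells in flfl_CD4Cre (0.253%, interval 0.121 to 0.465%), 1 among 3788 in flWT_CD4Cre (0.0264%, 0.000668 to 0.147%), 19 among 5077 in CD4Cre (0.374%, 0.225 to 0.584%), 12 among 2861 in flfl (0.419%, 0.217 to 0.732%) and 9 among 2868 in WT (0.314%, 0.144 to 0.595%). The intervals of flfl_CD4Cre, CD4Cre, flfl and WT overlapped, and that of flWT_CD4Cre lay below those of CD4Cre and flfl. A panel of 12 other genes of these cells that leaves Siglech out (Ccr9, Ly6d, Cox6a2, Klk1, Klk1b27, Spib, Runx2, Smim5, Pacsin1, Tcf4, Cd300c and Upb1), with 4 genes required and the same limits on other lineages, gave 0.380, 0.106, 0.512, 0.559 and 0.418% in the same libraries. The panel chose 73 cells, the 51 members and 22 others, of which 1 had a Siglech UMI. Whether these 22 were plasmacytoid dendritic cells was not tested. Without the barcodes that occurred in more than 1 library the Siglech-rule shares were 0.413, 0.0431, 0.415, 0.421 and 0.315%, with libraries in the order above. This alternative was chosen after seeing the data. The kept cells also differed in make-up: 191, 121, 2132, 118 and 172 were classed as B cells by Cd79a and Ms4a1, in the same order. The limits on other lineages left out 2 of 12, 0 of 1, 3 of 22, 6 of 18 and 3 of 12 cells with at least 3 Siglech UMIs. The part of these differences in the shares was not tested. With 1 library per genotype the shares have no test.

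**Figure D1:**
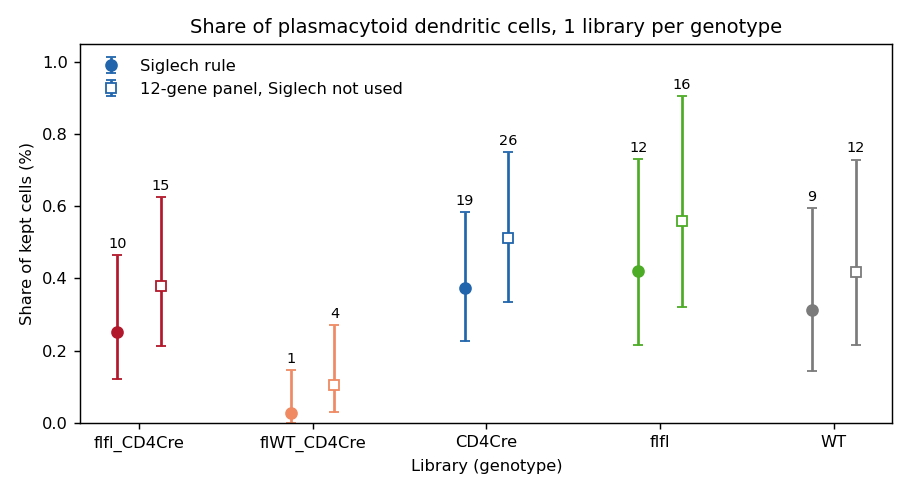
Share of kept cells in percent, per library on the x axis, for the Siglech rule (filled circles) and for the 12-gene panel without Siglech (open squares); bars are exact binomial 95% intervals and numbers give the cells. flWT_CD4Cre is lowest under both rules, with 1 cell under the Siglech rule.

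Siglech, the gene of the rule, had a median of 26 UMIs in members, with a range of 4 to 62, and the library medians were 39 in flfl_CD4Cre, 20 in flWT_CD4Cre, 39 in CD4Cre, 13 in flfl and 14 in WT. The members nearest the threshold held 4 UMIs in flfl and 5 in WT, with 6 and 9 of the panel genes. The cells just outside it held 2 UMIs each, in flfl_CD4Cre with 2 panel genes and in flfl with 4. All 51 members had at least 6 of the 12 panel genes and a median of 10, none of which the rule had used. In all, 65 kept cells had at least 3 Siglech UMIs, and the limits on other lineages left out 14, of which 12 had at least 4 panel genes. The median member held 9260 UMIs and 2925 genes, and all other kept cells had a median of 9351 UMIs. Within libraries the medians differed both ways: 10785 in members against 12292.5 in other cells of flfl_CD4Cre, 10149 against 5332.5 in CD4Cre, 7089.5 against 10894 in flfl and 6672 against 11240 in WT.

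The label held against the markers fixed for it. Bst2 encodes tetherin, a surface protein that holds back enveloped viruses. It had 3583, 2669, 3184, 3994 and 4015 CPM in members of flfl_CD4Cre, flWT_CD4Cre, CD4Cre, flfl and WT, against 441, 731, 325, 222 and 233 CPM in the other cells. Every library had Bst2 higher in members, and all 51 members had at least 11 UMIs of it. In edgeR's quasi-likelihood test on UMIs summed per library, with Benjamini-Hochberg adjustment over all genes tested, the log2 change was 3.18 (SE 0.27, adjusted p = 1.91e-28). Only flfl_CD4Cre, CD4Cre and flfl held the 10 cells of each class required, so this and the tests below rest on 3 libraries and 2 residual degrees of freedom.

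Tcf4, the E protein that maintains the lineage, had 3076, 1941, 1653, 826 and 747 CPM in members of flfl_CD4Cre, flWT_CD4Cre, CD4Cre, flfl and WT, against 165, 132, 184, 40.7 and 53.5 CPM in other cells. It was higher in members of every library (log2 3.60, SE 0.31, adjusted p = 4.17e-29 in edgeR), with higher levels in the Cre-bearing libraries in both classes. Irf8, a factor shared with type 1 conventional dendritic cells, had 4061, 3397, 2716, 3213 and 4119 CPM in members, against 220, 214, 368, 403 and 308 CPM in other cells (log2 3.05, adjusted p = 4.02e-25). Irf8 stood apart far less from cells with Xcr1 and Clec9a, the type 1 conventional class, which had 1391 to 2614 CPM (log2 0.67, SE 0.18, adjusted p = 0.00878).

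The wider programme of these cells moved with the markers. Against all other cells 460 of 12564 genes tested were higher in members (3.66%) and 945 lower (7.52%), or 11.2% in either direction. Without the barcodes that occurred in more than 1 library, an alternative chosen after seeing the data, 1763 genes were called, 1329 of them the same. Without members among the top 5% of UMIs of their library 1977 were called. Of the 12 panel genes 11 were higher, with a median log2 change of 7.26 against -0.38 over all genes, and the exception was Ly6d. The comparisons with the 3 named classes gave the same picture: 12 of 12 panel genes were higher than in type 1 conventional cells (background 17.2% of 2985 genes higher), 12 of 12 than in type 2 conventional cells, defined by Cd209a (13.5% of 3864), and 10 of 12 than in B cells with Cd79a and Ms4a1 (9.42% of 6157). The genes had to pass a filter on low counts, and a gene present in members alone passes it only through them, so these counts describe the cells and support nothing further. The classes held 167, 188 and 2734 cells.

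**Figure D2:**
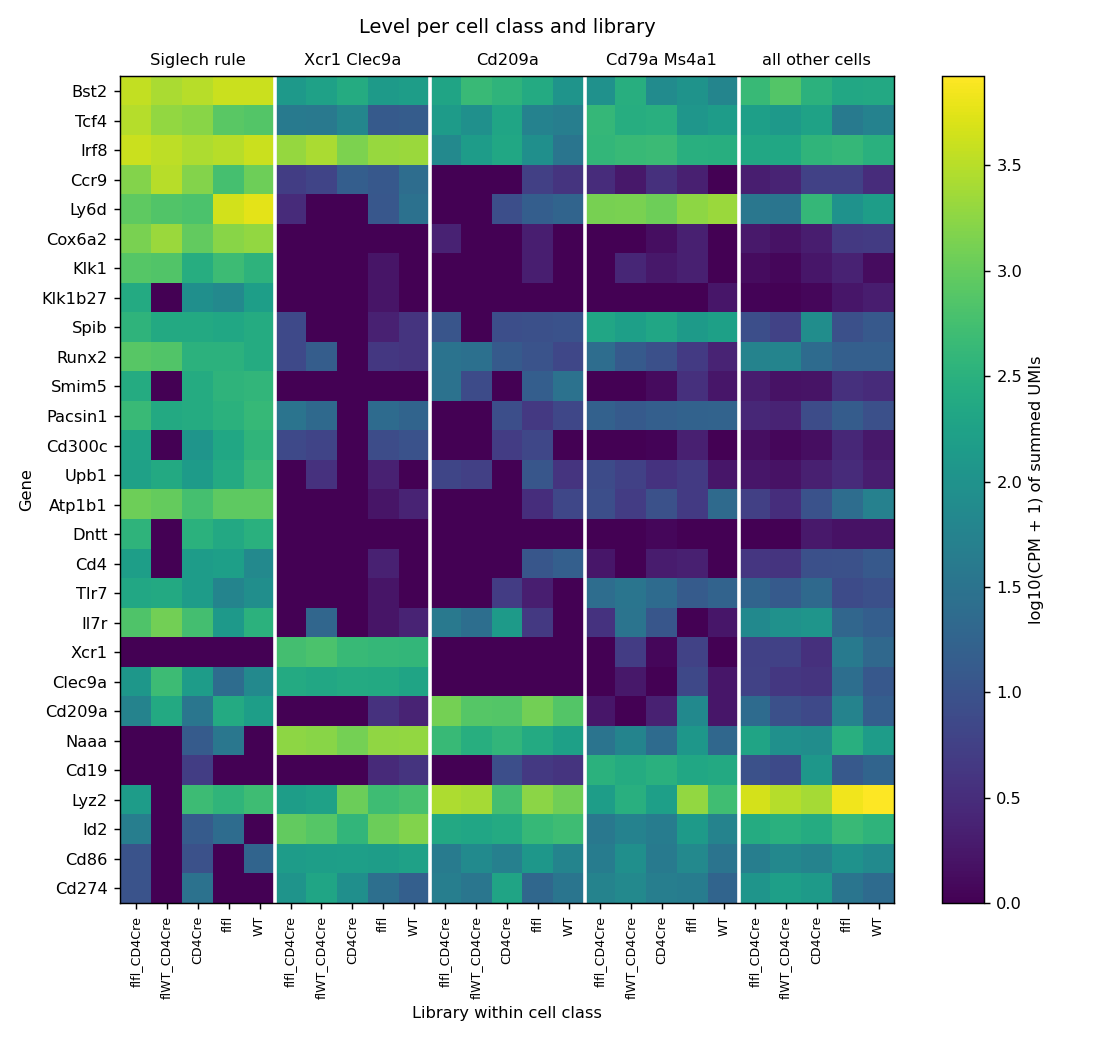
Level per gene (rows) in each library within 5 cell classes (columns), as log10 of summed CPM plus 1; within a class the libraries run flfl_CD4Cre, flWT_CD4Cre, CD4Cre, flfl and WT. Cox6a2, Klk1 and Dntt are bright in the Siglech-rule cells and near 0 in the other classes, while Ly6d is also bright in the Cd79a Ms4a1 cells.

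Among the surface genes, Ccr9, the receptor for the gut and thymus chemokine Ccl25, had 1575, 3155, 1577, 585 and 1147 CPM in members of flfl_CD4Cre, flWT_CD4Cre, CD4Cre, flfl and WT, against 1.16, 1.49, 4.72, 4.65 and 2.16 CPM in other cells. The lowest library of members stood far above the highest of the rest (log2 8.29, SE 0.64, adjusted p = 1.61e-08 in edgeR). A Ccr9 UMI was found in 49 of 51 members and in 1.58% of other cells. Under DESeq2 size factors the adjusted p was 0.0589.

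Klk1, a kallikrein protease gene known as a marker of these cells in the mouse, had 783, 728, 280, 493 and 348 CPM in members of flfl_CD4Cre, flWT_CD4Cre, CD4Cre, flfl and WT, against 0.188 to 1.39 CPM in other cells (log2 9.01, SE 0.46, adjusted p = 9.16e-75 in edgeR). It was found in 33 of 51 members and 0.541% of other cells. The close relative Klk1b27 rose with it (log2 8.64), and reads of the 2 genes may have been split between them. Cox6a2, a muscle-type subunit of cytochrome oxidase, had 1354, 2184, 950, 1687 and 1946 CPM in members, against 0.530 to 3.804 CPM in other cells (log2 9.44, adjusted p = 6.87e-105). No Cox6a2 UMI was found in type 1 conventional cells, so the level in members was at least 857-fold higher, with the bound taken from 3 UMIs over the 3 libraries.

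The promoters of these genes are shown because the members of the panel moved together and Tcf4 is known to bind the E-box. The sequences are RefSeq's on GRCm38.p6, 250 bases before to 50 after the start of the gene, with every match of the letters CANNTG on either strand in capitals. Ccr9 lies on the plus strand at chr9:123766961-123767260 and Klk1 on the plus strand at chr7:44225110-44225409.
Ccr9: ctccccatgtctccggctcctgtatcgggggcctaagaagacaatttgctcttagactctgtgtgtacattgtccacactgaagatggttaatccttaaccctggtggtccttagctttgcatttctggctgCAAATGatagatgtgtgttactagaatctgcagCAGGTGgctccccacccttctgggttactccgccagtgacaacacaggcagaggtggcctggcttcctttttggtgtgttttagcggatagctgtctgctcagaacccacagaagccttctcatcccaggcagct
Klk1: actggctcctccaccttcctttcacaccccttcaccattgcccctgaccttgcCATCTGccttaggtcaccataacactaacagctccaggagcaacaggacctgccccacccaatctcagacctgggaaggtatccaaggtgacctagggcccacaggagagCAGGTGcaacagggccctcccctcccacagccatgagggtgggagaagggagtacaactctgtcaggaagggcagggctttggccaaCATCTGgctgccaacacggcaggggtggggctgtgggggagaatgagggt
Of the 12 panel genes 8 had a promoter in the table, and 7 of those (87.5%) held CANNTG, against 72.3% of 32851 windows of that length, since the letters are short and common. The stricter CAGCTG was in none of the 8, and in 16.3% of windows.

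Most surface genes of the cells behaved in the same way, in a list that includes Bst2, Ccr9, Cd300c and Ly6d from above. The gene lists here and below overlap with the panel and with one another, so their counts are not separate results. Of 24 surface and adaptor genes 18 were higher than in all other cells (3.66% of all genes) and 1 lower (7.52%), with a median log2 change of 3.21. Ly6c2, a marker of monocytes as well, had 1289, 2427, 1059, 1997 and 3319 CPM in members of flfl_CD4Cre, flWT_CD4Cre, CD4Cre, flfl and WT, against 80.8 to 120 CPM in other cells (log2 3.61, adjusted p = 6.66e-28 in edgeR). The leukaemia inhibitory factor receptor gene Lifr (log2 3.45), the inhibitory receptor gene Lair1 (log2 2.78) and Lag3, which encodes a ligand of MHC class II (log2 3.44), were also higher. Fcer1g, an adaptor of activating receptors, was the member that was lower (log2 -0.85, adjusted p = 0.0195).

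Ly6d, a surface protein of lymphoid progenitors and B cells, did not pass against all other cells. It had 893, 728, 657, 4453 and 5700 CPM in members of flfl_CD4Cre, flWT_CD4Cre, CD4Cre, flfl and WT, against 34.5, 32.4, 409, 98.8 and 152 CPM in other cells (log2 3.49, SE 1.65, adjusted p = 0.472 in edgeR). Members of flfl and WT held far more Ly6d than members of the Cre-bearing libraries, and the others' highest value, in CD4Cre, came near the lowest of members. B cells had 1125 to 2168 CPM of Ly6d (log2 -0.29, adjusted p = 0.683). The CD4Cre library also held the most B cells, 2132 of 2734.

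**Figure D3:**
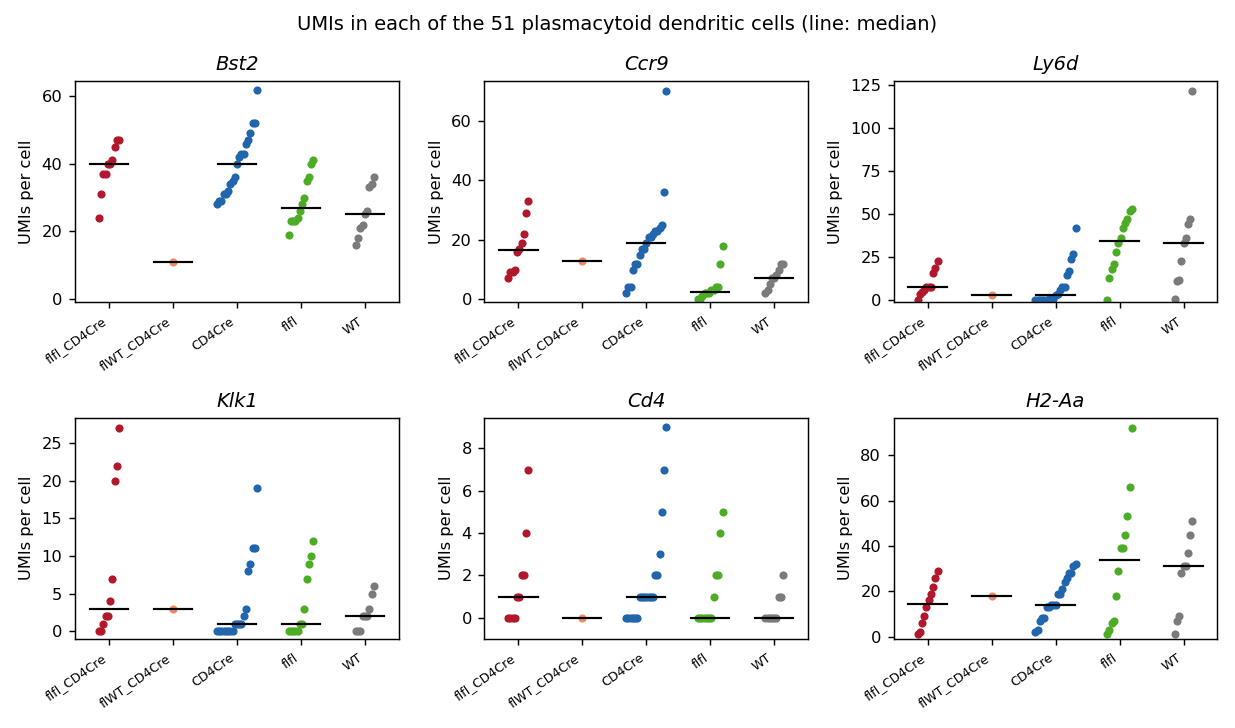
UMIs of 6 genes in each of the 51 members, by library; each point is 1 cell and the line is the median of the library. Ly6d and H2-Aa reach higher in flfl and WT than in flfl_CD4Cre and CD4Cre, and Ccr9 is lower in flfl.

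Among effector and metabolic genes 13 of 17 were higher (3.66% of all genes) and 1 lower (7.52%), with a median log2 change of 3.29. The 17 include the panel genes Cox6a2, Klk1, Klk1b27, Smim5, Pacsin1 and Upb1. Atp1b1, a subunit of the sodium pump, had 1124, 971, 590, 884 and 904 CPM in members of flfl_CD4Cre, flWT_CD4Cre, CD4Cre, flfl and WT, against 2.21 to 52.1 CPM in other cells (log2 6.10, SE 0.40, adjusted p = 1.36e-40 in edgeR). The call on Atp1b1 was lost with the panel in place of Siglech (log2 4.802, adjusted p = 0.0689) and with at least 3 cells per class (log2 5.48, adjusted p = 0.0679). Smim5, a small membrane protein gene, rose by log2 7.58 and was at 0 in type 1 conventional cells, at least 199-fold higher in members. Plac8, a gene of several myeloid cells, had 3638, 971, 2912, 5164 and 5839 CPM in members, against 443 to 926 CPM in other cells (log2 2.27, adjusted p = 3.63e-16). Gzmb, the granzyme that human plasmacytoid cells make in quantity, had 0 UMIs in all 51 members, against 7.32 to 33.5 CPM in other cells (at least 2.82-fold lower, adjusted p = 0.00322).

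Transcription factors of the lineage were higher in 8 of 14 cases (3.66% of all genes) and lower in none (7.52%), with a median log2 change of 1.30. The 14 include Tcf4, Spib and Runx2 of the panel and the marker Irf8. Spib, an Ets factor of plasmacytoid and B cells, had 359, 243, 239, 218 and 261 CPM in members of flfl_CD4Cre, flWT_CD4Cre, CD4Cre, flfl and WT, against 4.99 to 81.5 CPM in other cells (log2 3.62, SE 0.45, adjusted p = 7.74e-11 in edgeR). Spib did not pass against B cells (log2 0.27, adjusted p = 0.548). Runx2, which guides these cells out of bone marrow in the mouse, was higher (log2 3.77), as was Bcl11a, a repressor needed for their development (log2 4.19). Zeb2, which represses Id2 in this lineage, had log2 -0.06 and did not pass (adjusted p = 0.952).

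Id2 went the other way. It had 46.05, 0, 12.6, 23.0 and 0 CPM in members of flfl_CD4Cre, flWT_CD4Cre, CD4Cre, flfl and WT, against 253, 304, 257, 461 and 354 CPM in other cells (log2 -3.93, SE 0.45, adjusted p = 3.99e-16 in edgeR), and no library of members reached the others. Batf3, a factor of type 1 conventional cells, was lower as well (log2 -3.11), and Zbtb46, a mark of conventional cells, had no UMI in any member but did not pass against all other cells (adjusted p = 0.116). Of the 8 factors of conventional cells 4 were lower (7.52% of all genes) and 1 higher (3.66%).

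Early lymphoid genes were counted as well, in a list that shares Ly6d, Cd7 and Blnk with the surface list. Dntt, which encodes the polymerase that adds bases to receptor gene joints, had 350, 0, 318, 230 and 313 CPM in members of flfl_CD4Cre, flWT_CD4Cre, CD4Cre, flfl and WT, against 0.0161 to 0.878 CPM in other cells (log2 9.36, SE 0.74, adjusted p = 3.76e-09 in edgeR). A Dntt UMI was found in 40 of 51 members (78.4%) and in 0.114% of other cells, and in no conventional cell of either class. Fcrla, an intracellular Fc receptor homologue (log2 3.83), Il7r, the interleukin 7 receptor (log2 2.52), and Cd7 (log2 4.79) were higher too. Cd7 lost the call without the library block (log2 3.77, adjusted p = 0.127 in edgeR) and with the panel in place of Siglech (log2 4.32, adjusted p = 0.0815). Of 10 tested lymphoid genes 6 were higher (3.66% of all genes) and 1 lower (7.52%), Cd79b, while Rag1, which begins receptor rearrangement, had 0 UMIs in members.

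Cd4 itself was present. It had 157, 0, 146, 161 and 69.5 CPM in members of flfl_CD4Cre, flWT_CD4Cre, CD4Cre, flfl and WT, against 3.22, 2.82, 8.13, 8.32 and 11.5 CPM in other cells (log2 4.35, SE 0.45, adjusted p = 2.18e-19 in edgeR). It was found in 27 of 51 members (52.9%, or 25.5% after each cell was thinned to 4000 UMIs), although the rule left out cells with Cd3, and in 4.06% of other cells. In cells with Cd3 it had 160, 97.1, 187, 13.5 and 29.1 CPM in flfl_CD4Cre, flWT_CD4Cre, CD4Cre, flfl and WT. Whether the Cd4-driven Cre acted in members was not tested.

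Cd274 was scarce in members. There were 1, 0, 7, 0 and 0 UMIs, or 9.21, 0, 29.3, 0 and 0 CPM, in flfl_CD4Cre, flWT_CD4Cre, CD4Cre, flfl and WT, against 112, 161, 137, 32.4 and 22.6 CPM in other cells (log2 -2.89, SE 0.57, adjusted p = 1.24e-05 in edgeR). It was found in 7 of 51 members (13.7%, interval 5.70 to 26.3%) and in 34.1% of other cells. In cells with Cd3, the intended target of the deletion, Cd274 had 62.7 CPM in flfl_CD4Cre, 49.7 in flWT_CD4Cre, 77.9 in CD4Cre, 13.2 in flfl and 10.9 in WT. The level in flfl_CD4Cre was thus below that in CD4Cre, but not below that in flWT_CD4Cre, flfl or WT. In flfl and WT the other cells were low in Cd274 as well. Where the counted reads lie relative to the floxed part is not given in the sources used here, so these values do not check the deletion. Between flfl_CD4Cre and CD4Cre members, 1 against 7 UMIs, no difference was detectable at this depth.

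Of the nucleic acid sensing genes Tlr7, Unc93b1, Irf7 and Pld4 were higher, 4 of 19 tested (3.66% of all genes), with 1 lower (7.52%). Tlr7, the sensor of single-stranded RNA, had 221, 243, 146, 57.4 and 86.9 CPM in members of flfl_CD4Cre, flWT_CD4Cre, CD4Cre, flfl and WT, against 6.90 to 21.2 CPM in other cells (log2 2.92, SE 0.44, adjusted p = 2.36e-09 in edgeR). It was found in 33 of 51 members and 12.3% of other cells, and was also higher than in B cells, which had 12.2 to 31.9 CPM (log2 2.57). Tlr9, the DNA sensor, had 2 UMIs in all members together, both in CD4Cre, and did not pass (adjusted p = 0.611). Unc93b1, the chaperone that carries these receptors to endosomes, was higher (log2 0.86, adjusted p = 0.0394).

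No member held a UMI of any of 19 type I and III interferon genes. This allows at most 6.04 CPM for each gene over all members, from 3 UMIs of 496370. Other kept cells had 0.167 to 4.46 CPM summed over all 19 genes and type 1 conventional cells none, so a difference from them was not detectable at this depth. Of 24 interferon-stimulated genes 4 were higher (Usp18, Stat2, Irf7 and Bst2, against 3.66% of all genes), 4 lower (Oas1a, Rtp4, Zbp1 and Ddx58, against 7.52%) and 16 did not pass. Irf7, the factor that amplifies interferon, had 111, 0, 222, 275 and 539 CPM in members of flfl_CD4Cre, flWT_CD4Cre, CD4Cre, flfl and WT, against 75.3, 128, 89.8, 50.1 and 34.6 CPM in other cells (log2 1.16, SE 0.37, adjusted p = 0.0178 in edgeR). Isg15, a ubiquitin-like protein induced by interferon, had 27.6, 0, 163, 138 and 34.8 CPM in members and 64.4 to 373 CPM in other cells, and the groups overlapped (log2 -0.76, adjusted p = 0.237).

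Ifit3 and Bst2 are shown for the letters GAAA, then any 2 bases, then GAAA, the core of the element that interferon factors bind, in capitals on either strand. Ifit3 is on the plus strand at chr19:34583279-34583578 and Bst2 on the minus strand at chr8:71537423-71537722, both on GRCm38.p6 and read in the direction of the gene.
Ifit3: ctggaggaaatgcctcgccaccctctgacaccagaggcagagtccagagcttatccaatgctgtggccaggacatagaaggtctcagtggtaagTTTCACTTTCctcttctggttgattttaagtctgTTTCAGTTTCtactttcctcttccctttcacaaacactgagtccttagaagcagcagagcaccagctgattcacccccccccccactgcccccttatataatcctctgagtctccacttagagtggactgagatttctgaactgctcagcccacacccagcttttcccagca
Bst2: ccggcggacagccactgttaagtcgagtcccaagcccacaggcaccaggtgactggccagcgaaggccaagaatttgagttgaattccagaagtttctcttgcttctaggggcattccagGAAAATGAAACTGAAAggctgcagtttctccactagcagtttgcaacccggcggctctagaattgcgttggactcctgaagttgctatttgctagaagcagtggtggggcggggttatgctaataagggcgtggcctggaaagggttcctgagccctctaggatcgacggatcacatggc
The 2 matches in Bst2 overlap. Of 18 interferon-stimulated genes with a promoter 10 held a match (55.6%), against 3.44% of all windows. Although both windows hold it, Bst2 was high in every library of members while Ifit3 had 0, 0, 41.8, 0 and 0 CPM in members of flfl_CD4Cre, flWT_CD4Cre, CD4Cre, flfl and WT, against 39.9, 167, 32.8, 21.4 and 19.6 CPM in other cells (log2 -1.04, adjusted p = 0.381 in edgeR).

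Of 10 MHC class II genes 5 were lower in members than in all other cells (7.52% of all genes lower), and the other 5, among them Ciita and H2-DMa, did not pass. H2-Aa, an alpha chain, had 1317, 4368, 1356, 4567 and 4171 CPM in members of flfl_CD4Cre, flWT_CD4Cre, CD4Cre, flfl and WT, against 2142, 1276, 2256, 6833 and 6775 CPM in other cells (log2 -0.98, SE 0.24, adjusted p = 0.00068 in edgeR). All 51 members had the gene, and both members and other cells were lower in flfl_CD4Cre and CD4Cre than in flfl and WT. Cd74, the chain that guards the peptide groove, was lower too (log2 -0.97, adjusted p = 6.59e-05). Against the named classes 9 of them were lower than in type 1 conventional cells (background 15.2% of genes lower, 32.4% in either direction) and 10 than in type 2 conventional cells (13.8% lower, 27.3% either way), with median log2 changes of -1.88 and -2.45, against -0.98 in the comparison with all other cells. Against B cells 8 were lower (9.31% lower, 18.7% either way; median -1.30).

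Cd80 and Cd86, which costimulate T cells, were near 0. Cd80 had no UMI in any member, against 7.82 to 30.4 CPM in other cells, at least 3.19-fold lower. Cd86 had 4 UMIs, with 9.21, 0, 8.37, 0 and 17.4 CPM in flfl_CD4Cre, flWT_CD4Cre, CD4Cre, flfl and WT, against 46.3 to 97.1 CPM in other cells (log2 -3.45, adjusted p = 2.25e-05 in edgeR). Their list of 12 costimulation and checkpoint genes also holds genes that restrain T cells, such as Cd274. In it 8 genes were lower (7.52% of all genes): Cd80, Cd86, Cd40, Tnfsf9, Cd274, Pdcd1lg2, Lgals9 and Pdcd1. The list had 1 higher gene (3.66%), Cd200, a ligand that restrains myeloid cells. Cd200 had 120, 0, 151, 207 and 208.6 CPM in members, against 10.5 to 64.5 CPM in other cells (log2 1.80, SE 0.39, adjusted p = 0.000118).

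**Figure D4:**
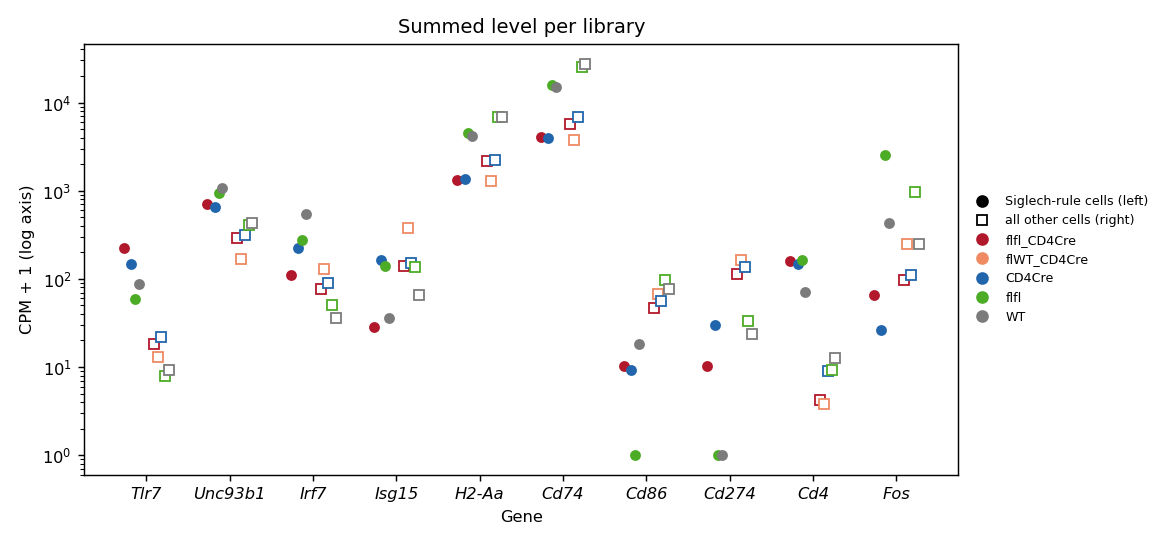
Summed CPM plus 1 on a log axis for 10 genes, in members (filled circles, left) and in all other kept cells (open squares, right), coloured by library; members of flWT_CD4Cre are left out because they are 1 cell. Tlr7 and Cd4 are higher in members of every library shown, Cd86 and Cd274 are lower, and Fos varies most between libraries, highest in flfl.

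Homing and cytokine genes split, against 3.66% of all genes higher and 7.52% lower. Of 14 homing genes 5 were higher (among them Ccr9, Cxcr3, S1pr4 and Itgb7) and 4 lower, among them Ccr7, the receptor for lymph node entry of mature dendritic cells (log2 -4.88, edgeR adjusted p = 7.65e-13). Of 14 cytokine and growth factor receptor genes 6 were higher, including Flt3, the receptor that drives dendritic cell growth (log2 2.80), Ifnar1 (log2 1.37) and Ifnar2 (log2 1.85), and 3 were lower, among them Csf1r (log2 -3.62). Of 7 chemokine genes 6 were lower (7.52% of all genes) and none higher. With cells chosen by the panel in place of Siglech, which added 22 cells, 3 of these lost the call. Cxcl16 had log2 -1.50 in place of -6.17 (adjusted p = 0.210 in edgeR). Cxcl9 had -1.27 in place of -5.94 (adjusted p = 0.695) and Ccl5 had -2.26 in place of -5.76 (adjusted p = 0.468). Ccl4, the exception, had 18.4, 0, 360, 2972 and 487 CPM in members, against 115, 353, 196, 798 and 430 CPM in other cells (log2 0.32, adjusted p = 0.656), and stood highest in flfl, where 8 of 12 members held it.

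The members of flfl also held the most RNA of immediate early genes, which cells switch on within minutes, also during dissociation. Summed over 11 genes, members had 497, 485, 937, 9548 and 1356 CPM in flfl_CD4Cre, flWT_CD4Cre, CD4Cre, flfl and WT, against 1533, 2142, 1364, 5087 and 1785 CPM in other cells. Fos, the clearest of them, had 64.5, 0, 25.1, 2571 and 435 CPM in members, and 11 of 12 flfl members held it. The other cells of flfl were high too, and the part of this in the results of that library was not tested.

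Traces of other cells were measured in the members. Of 9 tested macrophage markers 8 were lower than in all other cells (7.52% of all genes), and their sum, with the C1q genes limited by the rule, was 626, 485, 1356, 2479 and 3684 CPM in members of flfl_CD4Cre, flWT_CD4Cre, CD4Cre, flfl and WT, against 14453, 9533, 9845, 32272 and 48518 CPM in other cells. Apoe was found in 46 of 51 members, with 166 to 1894 CPM in the 4 libraries with more than 1 member, against 3074 CPM or more in other cells of every library, and both classes were highest in flfl and WT. T cell markers summed to 0 to 86.9 CPM in members, where the 0 is the 1 cell of flWT_CD4Cre. That sum includes Cd3d, Cd3e and Cd3g, which the rule holds at 0 in members. Epithelial markers summed to 9.21 to 414 CPM, with the highest in CD4Cre, whose sum includes the deep cell. Clec9a was found in 29 of 51 members with no UMI of Xcr1. Of 7 tested markers of type 1 conventional cells, Clec9a was higher in members than in all other cells, and Naaa and Cd24a were lower. Of 6 tested markers of type 2 conventional cells, Cd209a and Clec10a were higher, and Mgl2, Itgam and Ffar2 were lower. Whether the RNA of Clec9a, Cd209a and Clec10a was the members' own was not tested. Cell cycle genes were lower in 11 of 15 cases (7.52% of all genes), with 1 Mki67 UMI in all.

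Members of flfl_CD4Cre and CD4Cre, which differ in the floxed allele alone by their labels, were compared by summed UMIs without a test. A gene was past the fold when the ratio was at least 2, the higher level at least 200 CPM and the exact Poisson intervals apart, which held for 88 of 897 genes (9.81%), 46 higher in flfl_CD4Cre (5.13%) and 42 lower (4.68%). Without the CD4Cre member of 48396 UMIs there were 44 of 875, with 25 higher and 19 lower, and 33 were past the fold both ways. Without barcodes that occurred in other libraries, 3 of them members of CD4Cre, there were 42.

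The largest ratio that remained was that of Ifitm3, an interferon-induced membrane protein that blocks virus entry. It had 1 UMI in flfl_CD4Cre members (9.21 CPM), against 163 in CD4Cre members (682 CPM), and 80 UMIs (420 CPM) without the deep cell. The flWT_CD4Cre, flfl and WT members had 243, 149 and 104 CPM of Ifitm3, and other cells 770 to 1813 CPM. Ifitm2 had 18.4 CPM in flfl_CD4Cre, against 377 CPM in CD4Cre and 210 CPM without the deep cell, with 103 and 52.1 CPM in flfl and WT. Other cells held 1698 CPM of Ifitm3 in flfl_CD4Cre and 1105 CPM in CD4Cre, so they did not share the direction. Ifitm1, Ifitm2 and Ifitm3 are close relatives whose reads may be split. The CD4Cre members without the deep cell still held RNA of other cells. Members of 18646 and 13215 UMIs held 49 and 56 UMIs of Lyz2, a macrophage marker. Lyz2 was itself past the fold without the deep cell, at 147 CPM in flfl_CD4Cre and 598 CPM in CD4Cre. The part of such RNA in the Ifitm3 and Ifitm2 differences was not tested. The next largest ratio was that of the chemokine gene Ccl4, of which the deep cell held 0 UMIs. Ccl4 had 18.4 CPM (2 UMIs) in flfl_CD4Cre and 451 CPM (86 UMIs) in CD4Cre without that cell. In flfl and WT members it had 2972 and 487 CPM. Other cells had 115 CPM of Ccl4 in flfl_CD4Cre and 196 CPM in CD4Cre.

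Slfn5, an interferon-inducible Schlafen gene, had 36.8 CPM (4 UMIs) in flfl_CD4Cre members and 343 CPM (82 UMIs) in CD4Cre members, or 430 CPM without the deep cell, but 11.5 and 34.8 CPM in flfl and WT, so flfl_CD4Cre lay among the other libraries. Irf7 was past the fold only without that cell, at 111 CPM in flfl_CD4Cre, against 273 CPM in CD4Cre and 222 CPM there with all members. For Clu, Spp1 and Ifitm1, which were at 356, 921 and 552 CPM in CD4Cre with all members, the deep cell alone gave 84 of 85, 214 of 220 and 130 of 132 UMIs, and none of them was past the fold without it.

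Genes higher in flfl_CD4Cre differed less. Cd300a, an inhibitory receptor gene, had 203 CPM in flfl_CD4Cre and 58.6 CPM in CD4Cre (ratio 3.46, interval 1.69 to 7.31), or 73.4 CPM in CD4Cre without the deep cell (ratio 2.76), with 80.3 and 86.9 CPM in flfl and WT. Hmgcs1, an enzyme of sterol synthesis, had 295 CPM in flfl_CD4Cre and 92.1 CPM in CD4Cre (ratio 3.20, interval 1.80 to 5.78), or 115 CPM without the deep cell (ratio 2.55), with 34.4 and 174 CPM in flfl and WT. Klk1 had 783 CPM in flfl_CD4Cre and 280 CPM in CD4Cre, or 309 CPM without that cell. It was uneven, as flfl_CD4Cre members with 27, 22 and 20 UMIs gave most of the 85 UMIs there. The median member held 3 UMIs of Klk1 in flfl_CD4Cre and 1 in CD4Cre. Lifr had 700 CPM in flfl_CD4Cre and 280 CPM in CD4Cre, or 336 CPM without the deep cell. Cd4 was not past the fold, at 157 CPM in flfl_CD4Cre and 146 CPM in CD4Cre, or 178 CPM without that cell. With 1 library each, a difference between libraries cannot be told apart from one between genotypes.

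**Figure D5:**
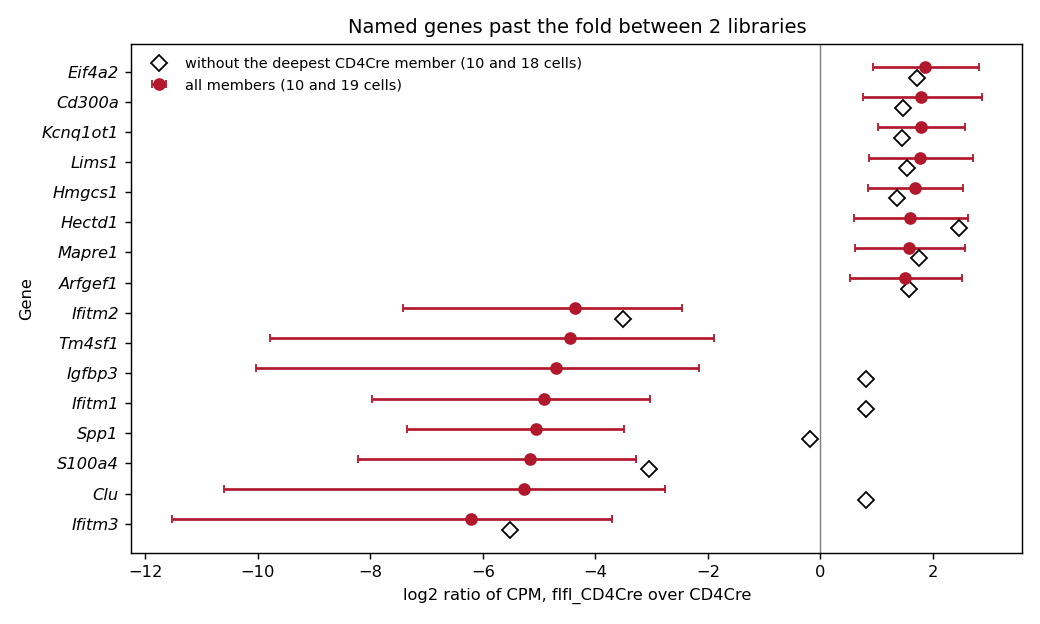
log2 ratio of CPM in flfl_CD4Cre over CD4Cre members for the 16 named genes past the fold; circles and bars give all members with exact 95% intervals, and diamonds the ratio without the deepest CD4Cre member. For Clu, Ifitm1, Igfbp3 and Spp1 the diamond lies near 0, while Ifitm3 and Ifitm2 stay low; Tm4sf1 has no diamond, being at 0 UMIs in CD4Cre without that cell.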

How the data were processed

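The authors' deposited matrices hold raw UMI counts per gene and barcode from Cell Ranger on mm10 (version 3.1.0, per the file headers of 3 libraries). The names under which flWT_CD4Cre and WT were deposited do not match their genotype labels, and groups follow the genotype labels. The 12 bulk libraries of stimulated T cells were not used. Members and gene lists were chosen with earlier results of these data known.

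Cells with under 500 genes or over 10% mitochondrial UMIs were left out. Members' UMIs were summed per library (4121 to 238990) and fitted with edgeR 4.0.16 (R 4.3.3; TMM, default filter, robust quasi-likelihood, library as a block) over 28208 shared genes, with Benjamini-Hochberg adjustment at 0.05. SE is the absolute log2 change divided by the square root of the test's F statistic. CPM is the count scaled to the class's summed UMIs in its library. Libraries entered with at least 10 cells of both classes. Named genes passed the test in the same direction in every fitted library with at least 200 CPM (the largest changes), led their list by CPM in members, or were fixed by name; genes outside this rule, such as Slfn5, Apoe and Zeb2, were chosen after their values were seen. On simulated data, edgeR recovered 99% of 4-fold and 9% of 2-fold changes for members against all other cells. The simulated spread between libraries (dispersion) was below the 0.095 fitted to these data, so recovery here may be lower. Only genes with enough counts were changed, all upwards in members. Recovery of lowered or sparse genes was not simulated. No doublet caller was run; the rule's limits on other lineages stand in for one. The block pairs the 2 class sums of a library. The p-values rest on a spread between 3 libraries of different genotype, which edgeR estimates in part by pooling over genes. With 2 residual degrees of freedom, very small p-values therefore do not measure the spread of the single gene.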

Additional observations from a re-analysis of the deposited data

How the results depend on the processing

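Of 643 alternative values for named genes 622 kept direction and side of the threshold, 20 lost the call and 1 reversed: Ccl17 against type 2 conventional cells, at log2 0.73 (adjusted p = 0.906, edgeR) with the panel in place of Siglech. The share in flfl_CD4Cre was 0.0759% with C1q and Cd79a at 0 and 0.101% with at most 5% mitochondrial UMIs, at which flWT_CD4Cre had 0%. With C1q and Cd79a at 0 it was 0.177% in CD4Cre, 0.0699% in flfl and 0% in WT, and thinning to 2000 UMIs gave 0.734% in flfl. Genes called against all other cells, type 1 and type 2 conventional cells and B cells numbered 420, 424, 417 and 404 without the library block. Against all other cells there were 2111 with at least 3 cells per class, against type 1 cells 1493 with no filter, and against type 2 cells 673 with DESeq2 and 656 with the panel. Omission of each library in turn gave 932 to 1262, 678 to 1213, 703 to 1065 and 615 to 1129, with 932 against all other cells and 615 against B cells without flfl_CD4Cre, and 754 against B cells without CD4Cre. Between flfl_CD4Cre and CD4Cre there were 18 genes at 500 CPM or more, 32 at a ratio of 3, 41 with C1q and Cd79a at 0, 44 without the top 5% of cells by UMIs and 42 without shared barcodes; the last 2 were chosen after seeing the data. C1q and Cd79a at 0 could not be fitted for the 4 tests. No paired analysis was possible because, between genotypes, each had 1 library; the tests between cell classes were paired by library through the block. The cause of these changes was not tested.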
